A study of Mus musculus with 2 samples.

Results

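The genes described here are 10 transcripts that mark the framework and the vessels of the spleen: Col1a1, Col1a2, Col3a1, Dcn and Sparc of the extracellular matrix, the mesenchymal receptor gene Pdgfrb, the secreted chaperone gene Clu, and Pecam1, Cdh5 and Stab2 of endothelium. They were chosen by gene symbol, and each was found once among the 22216 gene rows of the deposited table. Mouse spleen of genotype NOD.L7 was set against spleen of genotype NOD.g7, both named for the non-obese diabetic (NOD) mouse, an inbred strain with autoimmune diabetes. Each genotype had 1 RNA sequencing library, made from the spleens of 3 mice pooled before sequencing. The labels name no further allele and no treatment or age, and they do not explain g7 or L7. The design text speaks of spleen cells and the sample labels of spleen, and no source used here says whether capsule and stroma were dissociated or removed.

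The spleen is held together by fibroblastic reticular cells, which secrete fibrillar collagen and wrap it into a mesh that leukocytes move along. Blood leaves the red pulp through sinuses lined by endothelial cells that take up waste molecules with scavenger receptors. Pericytes and smooth muscle cells surround the arterioles, and follicular dendritic cells hold antigen in the B cell follicles. Several genes used as markers of these cells are also transcribed in blood cells: PECAM-1 is carried by platelets, monocytes, neutrophils and many lymphocytes, and clusterin and SPARC are stored in platelet granules.

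Levels were given as RPKM, reads scaled to the length of the gene and to the size of the library, so that genes of different length can be compared. Values rested on 12.1 Gb of mapped sequence in NOD.L7 and 9.13 Gb in NOD.g7, so an RPKM of 1 stood for a mean coverage of each base of a gene of 12.1 and 9.13. With 1 library per genotype there was no replicate, the spread between mice could not be measured and no test was made. Intervals given with a fold are 95% Clopper-Pearson intervals on approximate fragment numbers and cover counting error only. In spleen RNA of this kind, fewer cells of a type and less RNA per cell cannot be told apart.

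The stroma and endothelium label did not describe these libraries evenly. Col1a1, Col1a2, Col3a1 and Dcn were under an RPKM of 0.1 in both, the endothelial genes Cdh5 and Stab2 were near 1 and 2, and Pecam1 was far above all of them. In NOD.L7 the 10 genes summed to an RPKM of 79.6, against 78.5 in NOD.g7. Without Pecam1 the other 9 summed to 8.35 in NOD.L7 and 5.80 in NOD.g7. The largest differences among the 9 were those of Clu (1.46) and Sparc (0.43). The 3 collagen genes summed to 0.198 in NOD.L7 and 0.189 in NOD.g7. For scale, the leukocyte surface phosphatase gene Ptprc (CD45) alone was at 401 in NOD.L7 and 413 in NOD.g7.

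**Figure D1:**
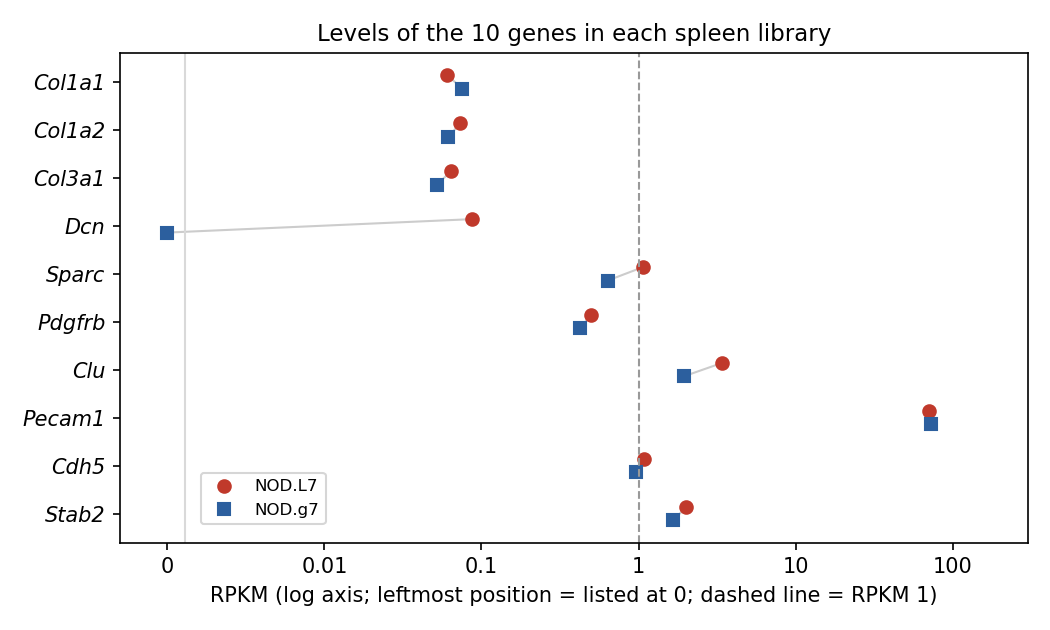
RPKM of each of the 10 genes (log axis) in the NOD.L7 library (circles) and the NOD.g7 library (squares), 1 library each, with no error bars. The 3 collagen genes sit between 0.0519 and 0.0755, Dcn is listed at 0 in NOD.g7, and Pecam1 lies above 70 in both libraries.

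The fibrillar collagens came first. Col1a1 (chromosome 11, 94797584 to 94813170 in mm9), which encodes the alpha 1 chain of type I collagen, was at an RPKM of 0.0607 in NOD.L7 and 0.0755 in NOD.g7. Col1a2 (chromosome 6, 4455697 to 4491543), its partner chain alpha 2, was at 0.0734 in NOD.L7 and 0.0616 in NOD.g7. Col3a1 (chromosome 1, 45368383 to 45406551), the chain of the type III collagen of reticular fibres, was at 0.0642 in NOD.L7 and 0.0519 in NOD.g7. All 3 collagen genes therefore lay within a narrow band in both libraries. Their mean coverage was 0.733, 0.887 and 0.776 in NOD.L7 and 0.689, 0.562 and 0.474 in NOD.g7 for Col1a1, Col1a2 and Col3a1, less than 1 sequenced base per base of gene. Among genes above 0 in the same library, 14.4%, 15.6% and 14.7% were lower in NOD.L7 and 15.2%, 13.8% and 13.0% in NOD.g7.

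Differences of the collagens between the libraries were not detectable at this depth. The NOD.L7 to NOD.g7 ratio of RPKM was 0.80 for Col1a1 (counting interval 0.43 to 1.604). It was 1.19 for Col1a2 (0.61 to 2.48) and 1.24 for Col3a1 (0.62 to 2.76). Each interval includes 1 and leaves room for a difference of over 1.5-fold in at least 1 direction. Within a library, the level of Col1a1 over that of Col1a2 was 0.83 in NOD.L7 and 1.23 in NOD.g7, and with about 15 to 24 fragments per gene these ratios have wide error too.

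The promoters of Col1a2 and Col3a1 are shown beside that of Stab2, because the first pair had the lowest levels and Stab2 the highest among the 4 genes with an entry in the RefSeq-derived promoter table (build GRCm38.p6), which were Col1a2, Col3a1, Sparc and Stab2. Each covers 250 bases before to 50 bases after the annotated start, read 5′ to 3′ on the gene's strand. Capitals mark matches, on either strand, to the TATA box letters TATAAA, to the CCAAT box, to the GC box GGGCGG, to the ETS core GGAAGT or to the SMAD letters CAGAC.
Col1a2, chr6:4505368-4505667, plus strand: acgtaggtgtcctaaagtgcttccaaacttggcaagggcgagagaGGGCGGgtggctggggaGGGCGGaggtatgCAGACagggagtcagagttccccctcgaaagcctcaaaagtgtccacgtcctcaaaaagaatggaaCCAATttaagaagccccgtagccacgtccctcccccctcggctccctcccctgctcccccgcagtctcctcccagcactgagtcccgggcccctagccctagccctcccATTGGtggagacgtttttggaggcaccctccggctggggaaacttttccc
Col3a1, chr1:45311288-45311587, plus strand: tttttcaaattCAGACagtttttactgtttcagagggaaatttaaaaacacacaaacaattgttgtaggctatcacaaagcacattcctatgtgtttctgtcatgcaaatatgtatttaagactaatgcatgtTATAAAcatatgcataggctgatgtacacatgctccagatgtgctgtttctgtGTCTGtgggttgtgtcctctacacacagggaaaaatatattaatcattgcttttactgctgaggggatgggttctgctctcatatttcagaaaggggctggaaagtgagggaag
Stab2, chr10:87007893-87008192, minus strand: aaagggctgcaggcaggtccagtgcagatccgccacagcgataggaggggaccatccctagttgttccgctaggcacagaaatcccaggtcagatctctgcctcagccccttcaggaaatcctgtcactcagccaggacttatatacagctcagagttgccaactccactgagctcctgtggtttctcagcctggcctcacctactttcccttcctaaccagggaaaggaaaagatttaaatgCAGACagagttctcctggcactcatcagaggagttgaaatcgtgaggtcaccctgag

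Of the motifs searched, the 2 collagen promoters shared CAGAC alone, with 1 match in Col1a2 and 2 in Col3a1. Col1a2 held 2 matches to CCAAT, the letters bound by the factor NF-Y, at 109 bases before the start and, on the opposite strand, at the start itself. It also held 2 matches to GGGCGG, the GC box. Col3a1 held neither and had 1 match to TATAAA, 117 bases before the start. Stab2 had a single match, to CAGAC. No motif overlapped another. Of all 32851 promoters of this length, 37.4% held CCAAT, 35.7% GGGCGG, 13.6% TATAAA, 23.8% GGAAGT and 49.6% CAGAC. These matches describe reference sequence and were not measured in the mice.

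Of the other matrix genes, Dcn was as low as the collagens and Sparc was higher. Dcn (chromosome 10, 96942134 to 96980796), which encodes decorin, a small proteoglycan that binds collagen fibrils, was at an RPKM of 0.0874 in NOD.L7 and listed at 0 in NOD.g7. In NOD.L7 its mean coverage was 1.06, from about 25 fragments, against 0 fragments in NOD.g7. That fragment number assumes the longest GENCODE transcript, of 4692 bases, and would be lower with a shorter gene model. No fold can be formed against an NOD.g7 value of 0, and an interval would have no upper limit, so neither is given. Dcn is therefore left out where members with an interval off 1 are counted. Sparc (chromosome 11, 55208003 to 55233582), which encodes a matricellular glycoprotein that binds collagen, was at 1.07 in NOD.L7 and 0.637 in NOD.g7. That is 17.6 times the level of Col1a1 in NOD.L7 and 8.43 times in NOD.g7, a ratio that carries the counting error of the few Col1a1 fragments. The NOD.L7 to NOD.g7 ratio of Sparc was 1.68 (counting interval 1.24 to 2.26).

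Pdgfrb (chromosome 18, 61204804 to 61244721) encodes a receptor for platelet-derived growth factor on fibroblasts and pericytes. It was at an RPKM of 0.496 in NOD.L7 and 0.425 in NOD.g7, with a ratio of 1.17 (counting interval 0.91 to 1.504). Its level exceeded that of Col1a1 8.17 times in NOD.L7 and 5.63 times in NOD.g7. The receptor gene was thus better covered than the collagen genes, and the interval of its ratio included 1.

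Clu (chromosome 14, 66587320 to 66600382), the gene of the secreted chaperone clusterin and a transcript of follicular dendritic cells, had the largest ratio of the 9 genes for which one was computed. It was at 3.39 in NOD.L7 and 1.93 in NOD.g7, a ratio of 1.75 (counting interval 1.45 to 2.12). On the scale of log2 of RPKM plus 1, which understates differences of low genes, the ratio was 0.58. Of the 11141 genes that reached an RPKM of 1 in either library, 2.94% had a larger absolute log2 ratio than Clu. Clu over Sparc in level was 3.18 in NOD.L7 and 3.04 in NOD.g7, so these genes differed between the libraries by about the same factor.

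Of the endothelial genes, Cdh5 and Stab2 were much lower than Pecam1. Cdh5 (chromosome 8, 106625525 to 106668402) encodes VE-cadherin, which joins endothelial cells at adherens junctions. It was at an RPKM of 1.09 in NOD.L7 and 0.957 in NOD.g7, a ratio of 1.14 (counting interval 0.93 to 1.38). Stab2 (chromosome 10, 86303955 to 86470687) encodes stabilin-2, a scavenger receptor of sinus endothelium that binds hyaluronan. It was at 2.02 in NOD.L7 and 1.66 in NOD.g7, a ratio of 1.22 (counting interval 1.10 to 1.35). The level of Stab2 over that of Cdh5 was 1.86 in NOD.L7 and 1.73 in NOD.g7.

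Pecam1 (chromosome 11, 106515532 to 106576595) encodes the adhesion molecule PECAM-1 (CD31). It was at an RPKM of 71.2 in NOD.L7 and 72.7 in NOD.g7, above 96.9% and 97.0% of all genes in the table. The ratio was 0.98, and its counting interval of 0.956 to 1.004 was the narrowest of the 9. Pecam1 exceeded Cdh5 65.5 times in NOD.L7 and 76.0 times in NOD.g7. Its level over these libraries therefore stood apart from that of the other endothelial genes, and the cells that carried it were not resolved in spleen RNA.

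**Figure D2:**
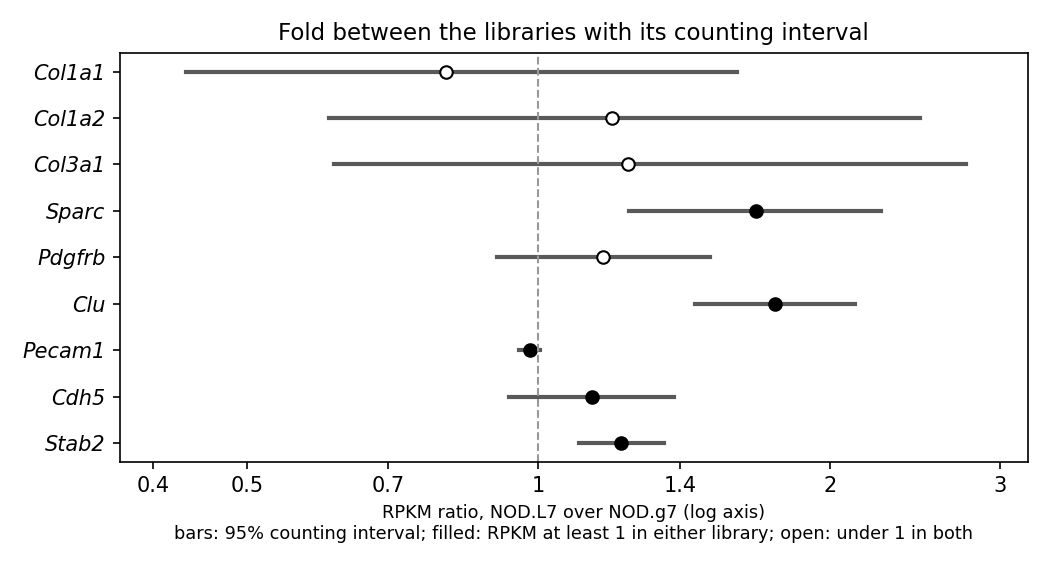
Ratio of RPKM, NOD.L7 over NOD.g7 (log axis), for the 9 genes above 0 in both libraries, with 95% counting intervals as bars; filled points reached an RPKM of 1 in either library. Clu (1.75) and Sparc (1.68) lie furthest to the right, Pecam1 (0.98) has the shortest bar, and the collagen bars span 1 widely.

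A level of at least 1 RPKM in either library was asked of genes before they were set against all others, which 50.1% of the 22216 genes met. Clu, Pecam1, Cdh5, Stab2 and Sparc met it, and Col1a1, Col1a2, Col3a1, Dcn and Pdgfrb did not. Sparc and Cdh5 passed through NOD.L7 alone, being under 1 in NOD.g7, and the nearest gene below the limit was Pdgfrb. None of the 5 reached an absolute log2 ratio of 1, a size that 0.709% of the 11141 kept genes reached. At a size of 0.5, which 4.1% of kept genes reached, Clu alone passed. With such small background shares, these counts say nothing particular about these genes. Clu, Sparc, Stab2 and Cdh5 had log2 ratios of 0.58, 0.34, 0.18 and 0.09 and Pecam1 one of -0.03, while 56.2% of kept genes were above 0 and their median was 0.02. The counting interval excluded 1 for Sparc, Clu and Stab2, as it did for 49.7% of the 10077 kept genes with a known transcript length, so an interval off 1 was common between these libraries.

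**Figure D3:**
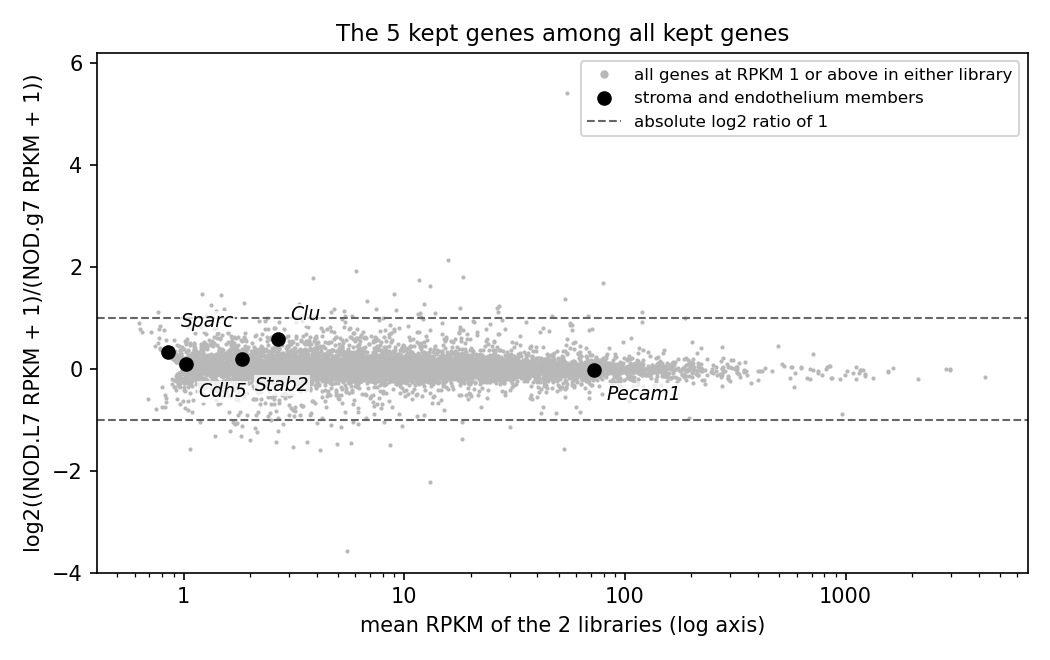
Log2 of (NOD.L7 RPKM + 1)/(NOD.g7 RPKM + 1) against the mean RPKM (log axis) for the 11141 kept genes (grey) and the 5 kept genes of the set (black); dashed lines mark an absolute log2 ratio of 1. All 5 lie between the lines, from Pecam1 at -0.03 to Clu at 0.58.

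Related genes were read next, to see whether the low levels extended beyond the 10. Of 14 other collagen genes, 13 stayed below RPKM 1 in each library and 8 below 0.1. For scale, 50.1% of all genes in the table reached 1 in either library, and 37.4% were under 0.1 in both. The exception was Col14a1, a collagen that associates with fibrils, at 2.46 in NOD.L7 and 1.89 in NOD.g7. Of 26 other matrix genes, 19 were under 1 in both. Lum (lumican), Mfap4 and Mfap5, genes of fibroblast matrix, were listed at 0 in both libraries. The alpha-globin gene Hba-a1 was also listed at 0 in both, beside well-covered erythroid Alas2, so a listed 0 need not mean a low level in this table.

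The 7 kept matrix genes included genes that blood cells also transcribe. Fn1, the gene of fibronectin, was the highest at 28.9 in NOD.L7 and 24.2 in NOD.g7. Vcan, which encodes the proteoglycan versican and is also made by monocytes, was at 2.30 in NOD.L7 and 0.5003 in NOD.g7, and its log2 ratio of 1.14 was the only one past the size of 1 among the kept genes of the list. Ecm1 was at 11.01 in NOD.L7 and 6.39 in NOD.g7, and Postn, the gene of periostin, at 3.40 in NOD.L7 and 2.19 in NOD.g7. Vcan and Nid2 passed the filter through NOD.L7 alone, so the kept genes are no even sample of the list. Of the 7, 6 had a positive log2 ratio and the median was 0.25 (0.41 with a pseudocount of 0.1), while over all 26 genes it was 0.0095.

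Among enzymes and chaperones that process collagen, the highest were genes that secretory cells of many kinds use. Of 23 such genes 11 were kept, none past a log2 ratio of 1, with 9 above 0 and a median of 0.13 (0.04 over all 23). Serpinh1 and Pcolce passed the filter through NOD.L7 alone. Ppib, a prolyl isomerase used in all secretory cells, was at 168 in both libraries. Plod3, a lysyl hydroxylase, was at 26.4 in NOD.L7 and 16.3 in NOD.g7, Timp2, an inhibitor of matrix metalloproteinases, at 15.5 in NOD.L7 and 12.4 in NOD.g7, and P4ha1, a prolyl hydroxylase subunit, at 14.3 in NOD.L7 and 12.5 in NOD.g7. Serpinh1, the chaperone specific to collagen, was at 1.05 in NOD.L7 and 0.839 in NOD.g7.

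Of 25 measured genes of reticular fibroblasts and mural cells, 20 stayed below RPKM 1 in each library, while 50.1% of all genes reached 1 in either. The 5 kept had a median log2 ratio of 0.01. The fibroblast genes Pdpn and Pdgfra were at 0.0166 and 0.00983 in NOD.L7 and at 0.0124 and 0.00325 in NOD.g7. The chemokine gene Ccl19 was listed at 0 in NOD.L7 and at 0.00723 in NOD.g7, and Acta2, the smooth muscle actin gene, was at 0.789 in NOD.L7 and 0.839 in NOD.g7. Thy1, which mouse T cells also carry, was the highest of the list at 146 in both. Among the 5 kept genes, those with the largest ratios were Tnfsf11, Ltbr and Tagln. Tnfsf11, the gene of RANKL, was at 3.23 in NOD.L7 and 1.75 in NOD.g7. The lymphotoxin receptor gene Ltbr was at 7.19 in NOD.L7 and 4.33 in NOD.g7, and Tagln, a smooth muscle gene, at 2.34 in NOD.L7 and 2.89 in NOD.g7. In spleen RNA the cells that carried these genes were not resolved.

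The broad endothelial list resembled Cdh5 more than Pecam1 in level. Of its 26 genes, 21 stayed below RPKM 1 in each library, while 50.1% of all genes reached 1 in either. The list's median level was 0.198 in NOD.L7 and 0.109 in NOD.g7. Kdr, a main receptor for vascular endothelial growth factor, was at 0.415 in NOD.L7 and 0.518 in NOD.g7. Icam2, an adhesion molecule gene shared by endothelium, platelets and lymphocytes, was the highest at 35.8 in NOD.L7 and 47.3 in NOD.g7. Plvap, the gene of a protein of endothelial fenestrae, was at 1.14 in NOD.L7 and 0.624 in NOD.g7, and the junction molecule gene Esam at 1.76 in NOD.L7 and 1.14 in NOD.g7. Of the 5 kept, 3 had a positive log2 ratio, none passed the size of 1, and the median was 0.18. Over all 26 genes the median was 0.02, and at a filter of RPKM 5, which left Icam2 alone, it was -0.39. Plvap passed the filter through NOD.L7 alone.

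In the sinus endothelial list, some of the highest genes, such as Fcgr2b and Mrc1, are ones that leukocytes also use. Of its 15 genes 7 were kept, with 5 above 0, none past the size of 1 and a median log2 ratio of 0.15 (0.05 over all 15). Stab1, the relative of Stab2, was at 0.125 in NOD.L7 and 0.0724 in NOD.g7, and Lyve1, a hyaluronan receptor, at 0.0780 in NOD.L7 and 0.0420 in NOD.g7. Gpr182, a receptor of sinus endothelium, was at 0.781 in NOD.L7 and 0.7999 in NOD.g7. The highest was Fcgr2b, an inhibitory Fc receptor that B cells also carry, at 62.1 in NOD.L7 and 56.0 in NOD.g7. Ehd3 followed at 51.2 in NOD.L7 and 48.0 in NOD.g7, and then Dnase1l3 at 23.2 in NOD.L7 and 18.9 in NOD.g7. Mrc1, the mannose receptor of sinus endothelium and macrophages, was at 22.1 in NOD.L7 and 13.3 in NOD.g7, and the transcription factor gene Maf at 14.4 in NOD.L7 and 8.31 in NOD.g7. Mcam, an adhesion molecule gene, was at 0.733 in NOD.L7 and 1.41 in NOD.g7, and it passed the filter through NOD.g7 alone.

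**Figure D4:**
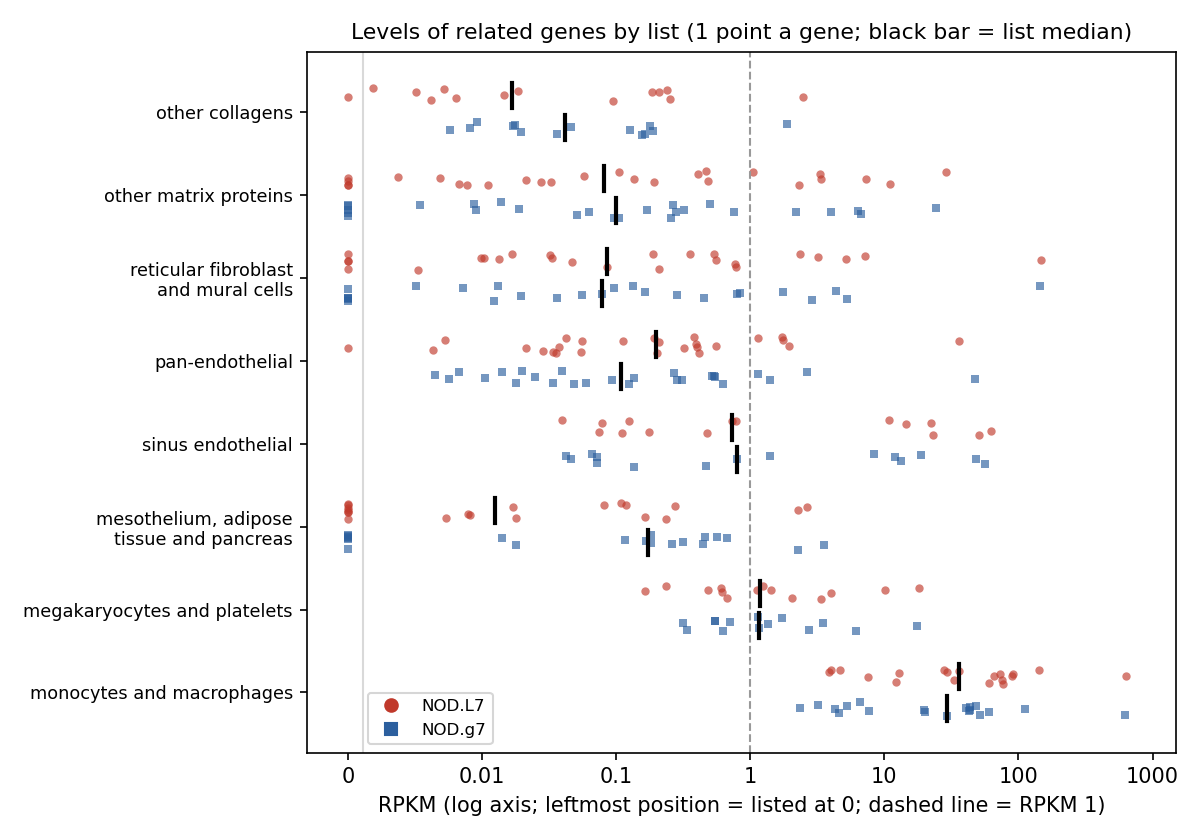
RPKM (log axis; genes listed at 0 at the far left) of the genes of 8 lists in the NOD.L7 library (circles, upper row) and the NOD.g7 library (squares, lower row), 1 point per gene, spread vertically only for legibility, with the list median as a black bar. The collagen, matrix, fibroblast and broad endothelial lists have medians under 0.2 in both libraries, against 36.2 in NOD.L7 and 29.5 in NOD.g7 for monocytes and macrophages.

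Partners of these genes in adhesion and signalling include proteins used by nearly every cell. Of 12 genes of VE-cadherin junction partners 7 were kept, with 6 above 0, none past the size of 1 and a median log2 ratio of 0.17. Ctnnb1, the gene of beta-catenin, was at 81.5 in NOD.L7 and 78.1 in NOD.g7, Vcl (vinculin) at 14.2 in NOD.L7 and 11.9 in NOD.g7, Jup (plakoglobin) at 4.45 in NOD.L7 and 3.19 in NOD.g7, and Ctnnd1 (p120-catenin) at 3.35 in NOD.L7 and 2.85 in NOD.g7. Of 19 genes of PDGF, VEGF, angiopoietin and TGF-beta signalling 6 were kept, with 3 above 0, none past the size of 1 and a median of -0.0016. Pdgfb, whose product is a ligand of the Pdgfrb receptor, was at 3.26 in NOD.L7 and 3.50 in NOD.g7. Tgfb1 was at 114 in NOD.L7 and 115 in NOD.g7, its receptor gene Tgfbr1 at 17.3 in NOD.L7 and 16.4 in NOD.g7, and Vegfb at 7.24 in NOD.L7 and 6.85 in NOD.g7.

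Because Sparc, Clu and Pecam1 are also platelet and myeloid transcripts, markers of those cells stand beside them. The 14 platelet genes summed to an RPKM of 44.2 in NOD.L7 and 38.4 in NOD.g7, none was at 0, and of the 8 kept 6 had a positive log2 ratio, with none past the size of 1 and a median of 0.16 (0.02 over all 14). Pf4, the gene of platelet factor 4, was at 3.37 in NOD.L7 and 2.75 in NOD.g7, and the platelet integrin gene Itga2b at 4.02 in NOD.L7 and 3.48 in NOD.g7. Ppbp, a platelet chemokine gene, was at 10.1 in NOD.L7 and 6.16 in NOD.g7, Gp9 at 1.43 in NOD.L7 and 1.16 in NOD.g7, and the integrin gene Itgb3, which is not limited to platelets, at 18.2 in NOD.L7 and 17.5 in NOD.g7. Clu over Itga2b in level was 0.84 in NOD.L7 and 0.56 in NOD.g7.

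The 19 monocyte and macrophage genes summed to 1482 in NOD.L7 and 1166 in NOD.g7, and none was at 0. All 19 had a positive log2 ratio, with a median of 0.59 and 3 past the size of 1. Ly6c1 was counted as positive at a log2 ratio of 0.0081, and its interval (0.83 to 1.23) included 1. Among all kept genes 56.2% had a positive log2 ratio, and 0.709% were past the size of 1. The list was drawn up after earlier results had been seen, so setting it beside these shares is no independent test. Csf1r, the receptor of the macrophage growth factor, was at 77.0 in NOD.L7 and 60.7 in NOD.g7, and the lysosomal gene Cd68 at 60.4 in NOD.L7 and 48.7 in NOD.g7. The 3 genes of the list past the size were Cd14, Cd163 and Vcam1, with log2 ratios of 1.803, 1.16 and 1.05. Which cells carried them was not resolved in spleen RNA. Lyz2 was the highest of the list at 636 in NOD.L7 and 618 in NOD.g7. The part of platelets and of macrophages in the values of Sparc, Clu, Stab2 and Pecam1 was not tested. Of 8 leukocyte and erythroid genes found, all but Hba-a1 were kept, which left 7, with 3 above 0, none past the size of 1 and a median of -0.04. Cd79a, a signalling chain of the B cell receptor, was at 526 in NOD.L7 and 598 in NOD.g7, Cd4 at 136 in NOD.L7 and 106 in NOD.g7, the myeloid integrin gene Itgam at 27.5 in NOD.L7 and 21.1 in NOD.g7, and Alas2, the erythroid haem synthesis enzyme gene, at 29.0 in NOD.L7 and 53.9 in NOD.g7.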

How the data were processed

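RNA of 2 pooled mouse spleen samples was sequenced after RNeasy extraction and TruSeq library preparation, per the labels' protocols. The authors deposited 1 table of RPKM values with a column per library, headed NOD.LC7 (read here as NOD.L7) and NOD (read as NOD.g7). Per the submitters' processing notes, which give no order of steps, the tools were CASAVA 1.8.2 and SAMtools 0.1.18 and the genome build was mm9. The gene models, the strandedness and the counting of ambiguous reads are not stated. The members and lists were chosen with earlier results of these data known. Of 225 list genes, 221 were found in the table, 1 of them by an older RefSeq symbol.

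Log2 ratios used a pseudocount of 1 and a filter at RPKM 1 in either library. Depth came from the steps of the RPKM values of single-exon genes under 2500 bases, whose span equalled their GENCODE M21 exon: all 171 values used in NOD.L7 and all 154 in NOD.g7 were whole numbers of bases within 0.15. Fragments were approximated from the longest GENCODE transcript at 200 bases each, and the depth search and size rule were tested on simulated data. Named genes were all 10 members and, per list, the 3 kept genes with the largest absolute log2 ratio, the highest gene and any past the size rule, plus Pf4, Itga2b, Csf1r and Cd68; further list genes were chosen after their values were seen. Calculations used Python 3.11.15, pandas 2.3.3 and scipy 1.17.1.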

Additional observations from a re-analysis of the deposited data

How the results depend on the processing

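No paired analysis was possible because there is a single library on each side, and for the same reason no replicate could be left out. The count of kept genes past the size rule was 79 and became 166 with a pseudocount of 0.1, 124 with 0.5, 52 at a filter of RPKM 5 and 457 at a size of 0.5. At that size Clu alone of the members passed (1, against 0 in all other settings). The median log2 ratio of the kept members was 0.18. It was 0.0812 with no filter, which admits the 5 low members, with 8 of 10 above 0. Among these, the intervals of Col1a2, Col3a1, Pdgfrb and Cdh5 included 1, and Dcn was listed at 0 in NOD.g7. Of all kept genes 56.2% were above 0, and no such share was computed without the filter. At a filter of RPKM 5 only Pecam1 was left, so the median was -0.0297 and 0 members were above 0. Pseudocounts of 0.1 and 0.5 gave a median of 0.27 and 0.22. The log2 ratio of Dcn, listed at 0 in NOD.g7, moved most, from 0.12 to 0.91 with 0.1 and 0.23 with 0.5. With 0.1 that of Sparc was 0.66 (against 0.34) and that of Cdh5 0.17 (against 0.09). Centring and a TMM factor on the RPKM values gave a median of 0.17 for both, and 4 of 5 members above 0. Of those 4, Sparc and Cdh5 passed the filter through NOD.L7 alone. The fragment size was varied after the data were seen: with 100 bases per fragment the interval of Pecam1 (0.963 to 0.996) also excluded 1, and with 400 bases the intervals of the same 3 members did. Depth limits the collagens and Dcn, at a mean coverage near 1 or below.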

Other observations

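Some related genes under an RPKM of 1 in both libraries differed by large ratios, and they were chosen after their values were seen. Lepr, the leptin receptor gene, which marks stromal cells of some lymphoid tissue, was at 0.561 in NOD.L7 and 0.0555 in NOD.g7, a ratio of 10.1 (95% counting interval 5.89 to 18.9). Podxl, an endothelial and podocyte sialomucin gene, was at 0.208 in NOD.L7 and 0.0596 in NOD.g7. In the other direction Tcf21, a transcription factor gene of spleen mesenchyme, was at 0.0135 in NOD.L7 and 0.134 in NOD.g7. The matrix gene Efemp1 was at 0.0325 in NOD.L7 and 0.259 in NOD.g7. Both rest on few fragments, about 1 in NOD.L7 and 11 in NOD.g7 for Tcf21 and 4 and 24 for Efemp1. The counting intervals of NOD.L7 over NOD.g7 were 0.0016 to 0.47 for Tcf21 and 0.032 to 0.37 for Efemp1. These differences have no replicate.

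Genes of neighbouring tissue were low in both libraries. Of 20 genes of mesothelium, adipose tissue and pancreas 2 were kept, while 50.1% of all genes were. The 2 were Cela1 at 2.65 in NOD.L7 and 2.29 in NOD.g7 and Fabp4 at 2.25 in NOD.L7 and 3.56 in NOD.g7. The pancreatic acinar genes Cpa1, Pnlip and Cela2a were listed at 0 in NOD.L7 and were at 0.458, 0.568 and 0.446 in NOD.g7. In NOD.g7 they had about 33, 39 and 22 fragments. Their counting intervals of NOD.L7 over NOD.g7 ended at 0.089, 0.075 and 0.14, while that of Cela1 (0.91 to 1.47) included 1. These differences have no replicate either. Prss2, the gene of a trypsinogen, was at 0.277 in NOD.L7 and 0.667 in NOD.g7. The epithelial keratin genes Krt8, Krt18 and Krt19 were at 0.108, 0.165 and 0.0170 in NOD.L7 and at 0.263, 0.318 and 0.182 in NOD.g7. The insulin gene Ins2 was listed at 0 in both.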
